A study of Homo sapiens with 12 samples.

Results

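Integrin and laminin genes were followed across 4 lung cancer cell lines in 3 cell states. The genes were taken as the rows of the deposited count table for a listed set of 34 genes (16 integrin alpha subunits, 8 integrin beta subunits and 10 laminin chains) out of 22506 genes listed, by name and with no threshold on a measured value. RNA-seq reads were counted in 12 libraries, with 1 library for each line and state. The lines are H1703, H1299, CHAGO and CALU, spelled as in the labels, and the series title groups them as lung squamous cell carcinoma lines. The states are parental cells, which the labels also call adherent, tumor-initiating cells (TICs), and TICs with knockdown of PRKCI, the gene of the atypical protein kinase C iota. The labels give no age, treatment or time. The sources used here do not say how TICs were grown or how PRKCI was knocked down, so that growth form and cell state cannot be told apart. Each state is represented by 4 libraries of 4 lines and lines therefore served as the replicates of a state. Nothing in the labels says whether the 3 libraries of a line came from separate cultures, and p-values measure only the spread between these samples.

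Integrins are cell surface receptors built of an alpha and a beta subunit, which link the extracellular matrix to the actin or keratin cytoskeleton. Laminins are large secreted trimers of an alpha, a beta and a gamma chain and are a main component of the basement membrane under epithelia. The alpha subunits encoded by ITGA3 and ITGA6 are laminin receptors of epithelial cells, those encoded by ITGA1, ITGA2, ITGA10 and ITGA11 bind collagens, ITGA4 and ITGA5 bind fibronectin, and ITGAV pairs with several beta subunits that bind matrix proteins or latent TGF-beta.

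The libraries held 21165030 to 91763055 counted reads. H1703 and H1299 had at most 36060810 and CHAGO and CALU at least 63759326, so that line and depth cannot be told apart. Levels are given as CPM, read counts relative to the library total after TMM scaling, a scaling that sets the bulk of genes equal between libraries. A level per length is CPM per kilobase of merged coding sequence. PRKCI itself stood at 342, 199, 608 and 237 CPM in TICs of H1703, H1299, CHAGO and CALU and at 58.1, 25.8, 23.2 and 41.5 CPM in the respective knockdown TICs. This was a fall of 3.15 ± 0.37 (SE) on the log2 scale, with an adjusted p of 0.0489 (edgeR quasi-likelihood test, Benjamini-Hochberg adjustment over 14008 genes, 4 lines). Of the epithelial markers, EPCAM was at most 0.710 CPM and CDH1 was at 0 in all 6 libraries of H1703 and H1299, whereas CHAGO had 432 to 666 CPM of EPCAM. EPCAM averaged 170 ± 331 (SD) CPM over the 4 lines in TICs and 153 ± 305 CPM in knockdown TICs, most of it from CHAGO. The summed level of the 14 epithelial and lung carcinoma markers was 1.51 to 68.2 CPM in those 6 libraries and 196 to 2118 CPM in CHAGO and CALU. This sum does not make CALU like CHAGO in each marker, since CDH1 was far lower in CALU than in CHAGO (levels below). The squamous keratin KRT5 was at most 2.52 CPM in any library, but it does not stand for the whole list. TP63 averaged 1.83 ± 2.17 (SD) CPM in parental cells, 20.4 ± 23.7 CPM in TICs and 11.7 ± 21.5 CPM in knockdown TICs. SOX2 averaged 11.9 ± 18.1 CPM in TICs and 2.37 ± 2.66 CPM in knockdown TICs. The marker PDGFRA of fibroblasts stood at 2554 to 3076 CPM in H1703 and at most 4.13 CPM in the other lines, and COL1A1 at 301 to 1340.1 CPM in CALU. The summed level of the 12 fibroblast and muscle markers was 2557 to 3082 CPM in H1703, nearly all of it PDGFRA. This sum was 398 to 1477 CPM in CALU and at most 41.7 CPM in H1299 and CHAGO. The part of such differences between lines in the results below was not tested.

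Of the 34 genes, 28 passed the filter on low counts and were tested. ITGA8 had no read in any library, which allows at most 3 reads in a library. ITGAL had 1 read in all, and ITGA7, ITGA9, ITGB6 and ITGB7 were below the filter. The number of the 34 genes with more than 3 reads ran from 16 in H1703 TICs to 30 in CALU TICs, and the number at 10 CPM or more ran from 9 to 20 in the same libraries. H1703 libraries had 9 to 11 such genes, H1299 13 to 15, CHAGO 13 to 15 and CALU 18 to 20. In bulk RNA, fewer cells with a transcript and less transcript per cell cannot be told apart.

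**Figure D1:**
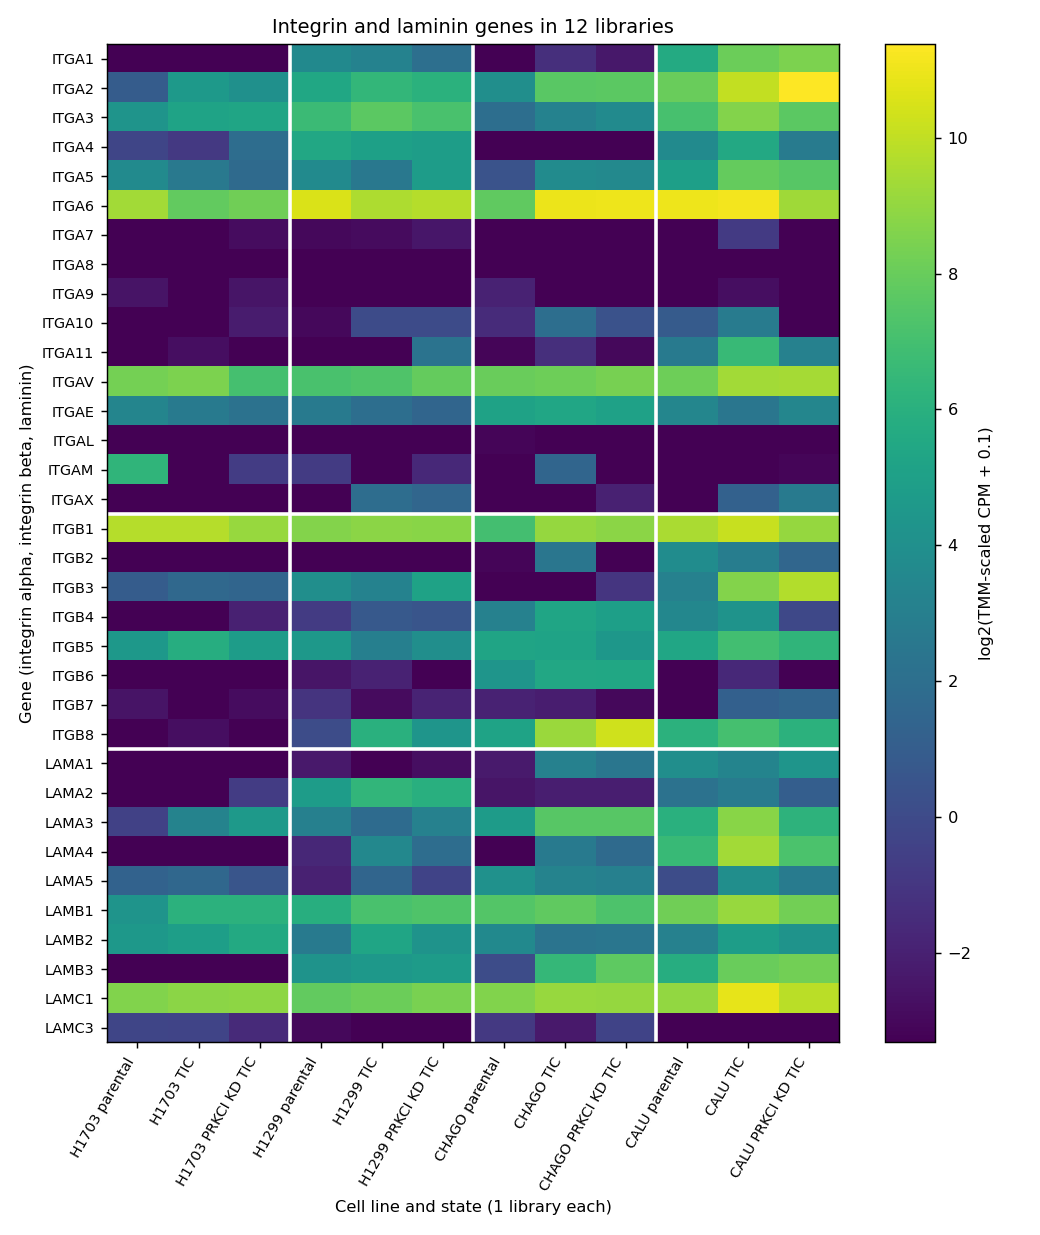
Level of each of the 34 genes (rows, integrin alpha, integrin beta and laminin separated by white lines) in the 12 libraries (columns, lines separated by white lines), as log2 of TMM-scaled CPM plus 0.1. ITGA6, ITGAV, ITGB1, LAMB1 and LAMC1 are seen in every library, whereas ITGA1, ITGB8 and LAMA4 are dark in H1703 and ITGB6 is bright only in CHAGO.

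The promoters of ITGA2 and LAMC1, a collagen receptor subunit and the main gamma chain, are shown because these genes stood higher in TICs than in parental cells in each line (values below) and because little or none of the window lies in an annotated exon. The sequences are the 250 bases before the transcription start, from RefSeq on GRCh38.p14, and capitals mark the GC box GGGCGG on either strand. The ITGA2 window is chr5:52989102-52989351 on the plus strand, and its last 26 bases lie in an exon of the GENCODE v29 annotation. The LAMC1 window is chr1:183023170-183023419 on the plus strand.
ITGA2: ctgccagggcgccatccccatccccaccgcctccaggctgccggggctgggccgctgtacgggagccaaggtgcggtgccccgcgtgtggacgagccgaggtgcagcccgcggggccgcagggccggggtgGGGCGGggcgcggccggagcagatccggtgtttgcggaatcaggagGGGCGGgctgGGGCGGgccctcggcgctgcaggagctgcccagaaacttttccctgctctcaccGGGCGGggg
LAMC1: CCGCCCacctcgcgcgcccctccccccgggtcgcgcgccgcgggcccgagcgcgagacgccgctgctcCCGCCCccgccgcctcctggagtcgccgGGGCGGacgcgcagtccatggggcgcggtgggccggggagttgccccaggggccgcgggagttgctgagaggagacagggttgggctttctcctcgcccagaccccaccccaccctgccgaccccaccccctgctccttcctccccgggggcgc
The ITGA2 window holds 4 GC boxes and the LAMC1 window 3. Of the 34 genes, 24 had a promoter in the RefSeq table, and 13 of these 24 held a GC box on either strand, against 42.3% of 27305 promoters. The AP-1 letters TGANTCA, searched on both strands, were in 1 of 24 (LAMA3, with 2 matches) against 6.60% of all promoters. The letters TATAAA were in 1 of 24 (ITGA6) against 11.1%. These are matches of letters and say nothing of binding.

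The lines differed in which integrins and laminins they expressed. Of the 28 genes tested, 21 (75%) differed between the 4 lines after adjustment (edgeR quasi-likelihood test of the 3 line coefficients together), where 45.4% of all 14008 genes tested did. By class, 7 of 12 alpha subunits, 5 of 6 beta subunits and 9 of 10 laminin chains passed. The 7 that did not were ITGA6, ITGA10, ITGAV, ITGAM, ITGAX, ITGB1 and LAMB2. For ITGAV the adjusted p was 0.0505 and for ITGB1 0.0819. The share of variance in log2 CPM that went with line was 75.2% in the median of the 28 genes and 63.5% in the median of all genes, and the share that went with state was 6.47% and 8.40%.

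Per length, ITGA6 and ITGB1 were the most abundant of the 34 genes. The mean over 12 libraries was 321 ± 226 (SD) CPM per kilobase for ITGA6, 238 ± 108 for ITGB1, 119 ± 90.4 for LAMC1, 109 ± 219 for ITGA2, 99.6 ± 54.7 for ITGAV and 81.2 ± 164 for ITGB8. The spread between libraries was as large as the gaps between these neighbours, and ITGB8 fell from rank 6 to rank 9 when the whole exon length was used.

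ITGA6, a laminin receptor subunit that pairs with ITGB1 or ITGB4, stood in parental cells, TICs and knockdown TICs at 638, 234 and 292 CPM in H1703, at 1484, 763 and 864 CPM in H1299, at 219, 1996 and 2037 CPM in CHAGO and at 2080.4, 2233 and 628 CPM in CALU. Parental cells were the highest state in H1703 and H1299 and the lowest in CHAGO, and in CALU knockdown TICs were the lowest. The adjusted p between lines was 0.176 (edgeR).

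ITGB1, the beta subunit shared by most matrix-binding integrins, stood at 863, 855 and 545 CPM in H1703, at 395, 455 and 429 CPM in H1299, at 129, 537 and 454 CPM in CHAGO and at 743, 1136 and 539 CPM in CALU, in the same order of states. It was above 100 CPM in every library, and knockdown TICs lay below TICs in each line. ITGAV stood at 322, 360.3 and 133 CPM in H1703, at 142, 159 and 243 CPM in H1299, at 261, 286 and 335 CPM in CHAGO and at 282, 650.2 and 674 CPM in CALU. Its libraries of different lines overlapped.

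ITGA3, a laminin receptor subunit (chr17:50055968-50090481 on GRCh38), had the smallest p between lines of the 28 genes. It stood at 19.6, 37.5 and 39.9 CPM in H1703, at 105, 202 and 144 CPM in H1299, at 3.90, 9.19 and 13.3 CPM in CHAGO and at 135, 396 and 202 CPM in CALU. Every CHAGO library lay below every H1703 library and these below every H1299 library, while H1299 and CALU overlapped. The mean over the 3 states was 244 ± 135 (SD) CPM in CALU, 151 ± 48.8 in H1299, 32.3 ± 11.1 in H1703 and 8.79 ± 4.70 in CHAGO, with an adjusted p of 4.4e-05 (edgeR, 3 libraries per line).

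Of the collagen-binding subunits, ITGA1, ITGA2 and ITGA11 had their highest mean level in CALU. The low ITGA10 did so in mean CPM (2.84, against 1.79 in CHAGO), but its mean log2 CPM was highest in CHAGO. ITGA2 (chr5:52989326-53094779 on GRCh38) stood at 1.82, 24.3 and 16.5 CPM in H1703, at 43.5, 86.7 and 67.7 CPM in H1299, at 15.1, 198 and 208 CPM in CHAGO and at 264, 1059 and 2669.6 CPM in CALU. CALU lay above all libraries of the other lines, and H1299 and CHAGO overlapped (adjusted p between lines 0.000367, edgeR). ITGA1, whose exons overlap those of the gene PELO, had no read in H1703 and stood at 12.6, 9.23 and 4.10 CPM in H1299, at 0, 0.294 and 0.0925 CPM in CHAGO and at 49.7, 269.6 and 354 CPM in CALU. The 3 lines with reads did not overlap (adjusted p 0.000634, edgeR). ITGA11 reached 6.47, 94.8 and 8.64 CPM in CALU and at most 4.68 CPM in the 9 other libraries, and ITGA10 was at most 6.75 CPM anywhere, with overlapping lines (adjusted p 0.211, edgeR).

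The fibronectin receptor subunits had other patterns. ITGA5 was at 32.0, 239 and 192 CPM in CALU and between 1.26 and 27.6 CPM in the 9 other libraries. ITGA4 stood at 45.6, 33.0 and 28.9 CPM in H1299, at 13.3, 47.4 and 6.92 CPM in CALU and between 0.450 and 3.67 CPM in H1703, and had no read in CHAGO. ITGAE, the alpha subunit that binds E-cadherin, was at 35.5, 42.0 and 33.4 CPM in CHAGO and between 2.65 and 10.7 CPM elsewhere. CHAGO was also the line with the most CDH1, the E-cadherin gene, at 826 to 1105.3 CPM against at most 4.35 CPM in the other lines. However, ITGB7, the beta subunit that pairs with ITGAE, had only 11, 10 and 2 reads in CHAGO parental cells, TICs and knockdown TICs. Whether ITGAE meets E-cadherin in CHAGO was not tested.

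Of the beta subunits that pair with ITGAV, ITGB3, ITGB5 and ITGB8 passed the test between lines and ITGB1 did not. ITGB8, which binds latent TGF-beta, stood at 36.4, 581 and 1274 CPM in CHAGO, at 70.02, 134 and 68.7 CPM in CALU, at 0.988, 63.8 and 20.0 CPM in H1299 and had 1 read in all in H1703. It was above 1 CPM in all but the H1703 libraries and the H1299 parental library (adjusted p between lines 0.000835, edgeR). ITGB3, which binds vitronectin and fibrinogen, stood at 8.72, 396 and 839 CPM in CALU, at 15.0, 9.23 and 35.3 CPM in H1299, at 1.85, 2.97 and 2.62 CPM in H1703 and at 0, 0 and 0.383 CPM in CHAGO. CALU TICs and knockdown TICs lay far above the other libraries, but the CALU parental library lay below all 3 of H1299 (adjusted p 0.00147, edgeR).

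ITGB6, another epithelial partner of ITGAV, was at 19.9, 44.7 and 42.6 CPM in CHAGO and at most 0.217 CPM elsewhere. It was below the filter, and without a filter its adjusted p between lines was 0.000631 (edgeR, 33.8% of 18462 genes called). ITGB5, a vitronectin receptor subunit, was at 23.2, 56.8 and 28.2 CPM in H1703, at 23.0, 8.17 and 15.4 CPM in H1299, at 38.1, 36.2 and 21.6 CPM in CHAGO and at 41.5, 122 and 78.2 CPM in CALU. The lines overlapped for ITGB5, with an adjusted p of 0.0313 (edgeR). ITGB4, the hemidesmosome partner of ITGA6, was at 8.61, 40.004 and 32.0 CPM in CHAGO, at 10.9, 18.9 and 0.803 CPM in CALU, at most 1.61 CPM in H1299 and at most 0.154 CPM in H1703.

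As a share of the summed level per length of the 8 beta subunits, ITGB1 made up 93.3 to 97.1% in H1703 and 83.9 to 90.7% in H1299. In CHAGO the share of ITGB1 was 55.6% in parental cells, 42.3% in TICs and 23.9% in knockdown TICs, and that of ITGB8 was 16.8%, 49.2% and 71.9%. In CALU, ITGB1 had 83.6%, 62.2% and 34.7%, and ITGB3 had 0.998%, 22.1% and 55.0%. With exon length in place of coding length, the first-ranked beta subunit was another only in CHAGO TICs, where ITGB1 had 53.3% and ITGB8 33.5%. These are shares in single libraries and were not tested.

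Among the alpha subunits, ITGA6 had the largest share in 9 of the 12 libraries. The exceptions were ITGAV in H1703 TICs (55.8%) and CHAGO parental cells (50.7%), and ITGA2 in CALU knockdown TICs (54.9%, against 9.0% in CALU parental cells and 20.6% in CALU TICs). With exon length, ITGA6 also led in CHAGO parental cells, with 44.3% against 41.1% for ITGAV.

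**Figure D2:**
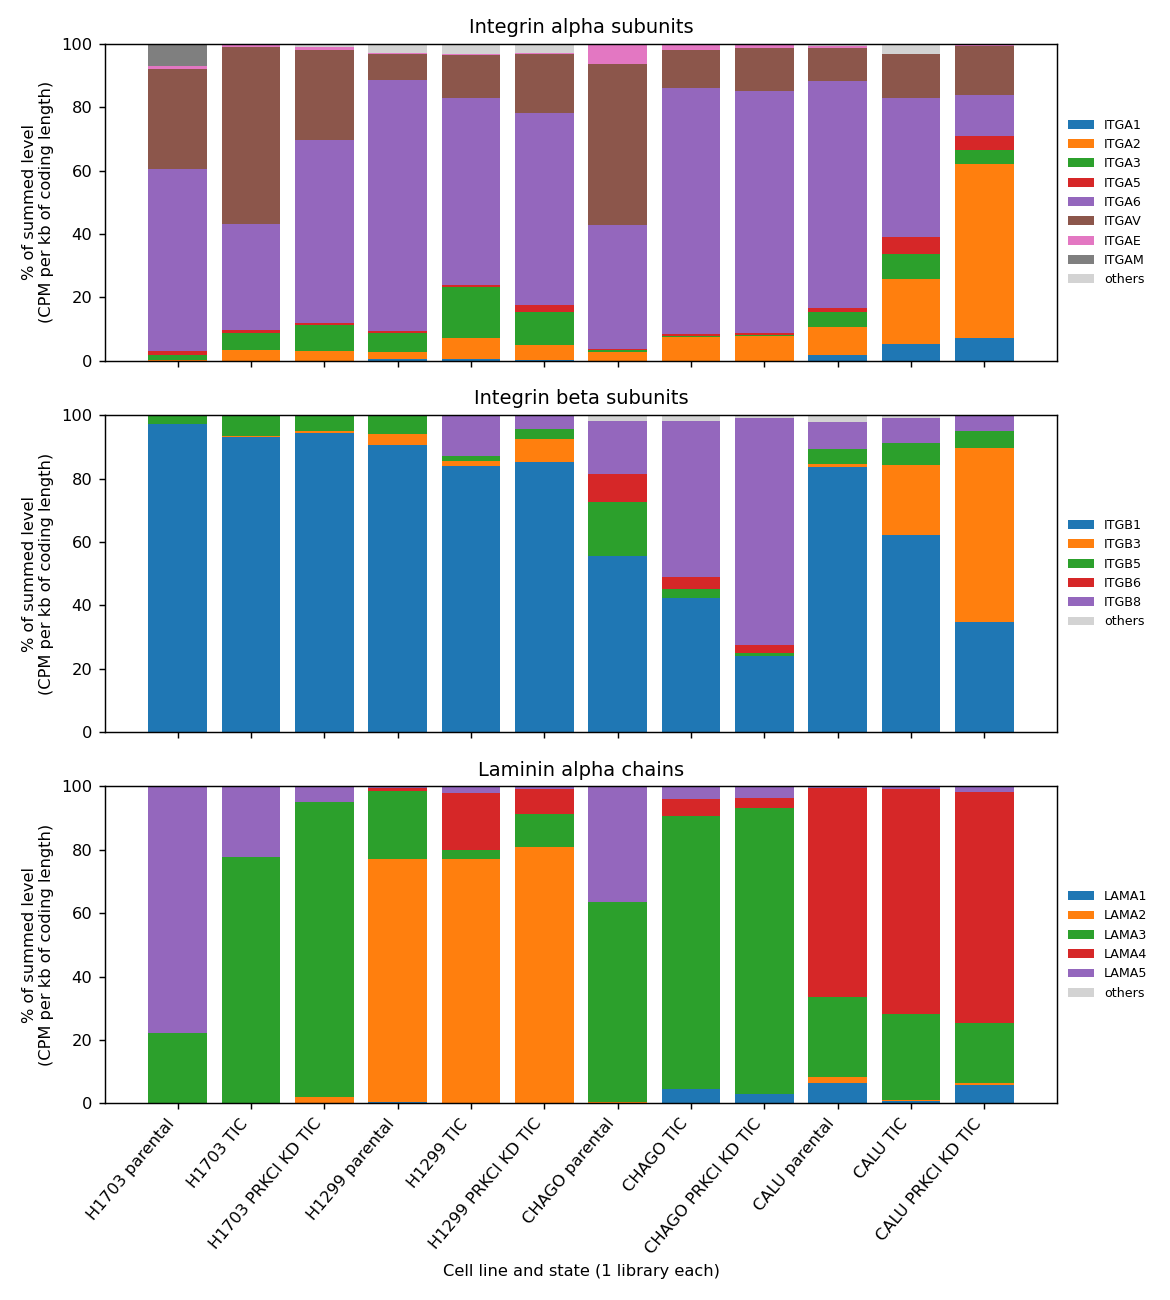
Share of the summed level (CPM per kilobase of coding length) of the integrin alpha subunits, the integrin beta subunits and the laminin alpha chains in each of the 12 libraries, as stacked bars from 0 to 100%. Genes that never pass 4% are grey, and the bars show ITGB1 as nearly the only beta subunit of H1703, ITGB8 growing to 71.9% in CHAGO, ITGB3 to 55.0% in CALU, and a different leading laminin alpha chain in H1299, CHAGO and CALU.

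Laminin alpha chains carry the main integrin-binding site of a laminin, and the leading alpha chain was a different gene in H1299, CHAGO and CALU. LAMA2, the chain of muscle and nerve laminins, stood at 27.5, 82.2 and 62.6 CPM in H1299 and at most 6.92 CPM in the other lines, with no read in H1703 parental cells or TICs. Every H1299 library lay above every library of the other lines (adjusted p between lines 0.000586, edgeR). In H1299, LAMA2 made up 76.9 to 80.8% of the laminin alpha level per length.

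LAMA4, a chain of vessel and mesenchymal laminins, stood at 94.6, 639 and 151 CPM in CALU, at 0.208, 11.4 and 3.71 CPM in H1299, at 0, 6.68 and 3.29 CPM in CHAGO and at 0 in the 3 H1703 libraries. CALU lay above all other libraries (adjusted p 0.000944, edgeR), and LAMA4 made up 66.1 to 72.8% of its laminin alpha level. PECAM1, an endothelial marker, was at 2.59, 45.0 and 11.3 CPM in CALU and at most 0.690 CPM elsewhere, and the summed level of the 9 platelet and endothelial markers was 0 to 28.9 CPM in parental cells, 0.807 to 48.0 CPM in TICs and 0 to 24.5 CPM in knockdown TICs. The part of these markers in the LAMA4 level was not tested.

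LAMA3, the chain of the laminin that anchors epithelial cells at hemidesmosomes, made up 63.1 to 90.4% of the laminin alpha level in CHAGO. Its levels were 26.9, 189.9 and 186 CPM in CHAGO, 64.8, 437 and 71.4 CPM in CALU, 8.30, 3.45 and 8.74 CPM in H1299 and 0.618, 9.41 and 24.4 CPM in H1703. In H1703, LAMA5, a chain of most adult basement membranes, had 77.8% of a low total in parental cells, and LAMA3 had 77.8% in TICs and 93.1% in knockdown TICs. LAMA5 stood at 2.36, 2.93 and 1.39 CPM in H1703, at 0.156, 2.65 and 0.662 CPM in H1299, at 17.01, 9.26 and 8.42 CPM in CHAGO and at 0.981, 15.502 and 6.98 CPM in CALU. LAMA1 was at 9.78 to 19.9 CPM in CALU, at most 8.87 CPM in CHAGO and at most 0.104 CPM elsewhere.

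LAMC1, the gamma chain of most laminins, stood at 387, 445 and 477 CPM in H1703, at 229, 267 and 349.7 CPM in H1299, at 383, 547 and 528 CPM in CHAGO and at 515, 1834 and 948 CPM in CALU. It was above 200 CPM in every library, and CALU TICs were the highest (adjusted p between lines 0.00421, edgeR). LAMB1, the beta chain of most laminins (chr7:107923799-108003255 on GRCh38, with exons that overlap those of DLD), stood at 19.6, 70.2 and 69.3 CPM in H1703, at 60.6, 144 and 159 CPM in H1299, at 175, 217 and 154 CPM in CHAGO and at 297, 564 and 308 CPM in CALU. CALU lay above all other libraries and H1703 at the low end, where it overlapped H1299 (adjusted p 0.00117, edgeR).

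LAMB3, the beta chain that joins LAMA3 in hemidesmosome laminin, had no read in H1703 and stood at 18.7, 23.0 and 26.8 CPM in H1299, at 0.960, 89.1 and 213 CPM in CHAGO and at 57.8, 257 and 307 CPM in CALU. In CHAGO its share of the laminin beta level per length was 0.8% in parental cells, 39.8% in TICs and 68.7% in knockdown TICs. LAMB2 lay between 4.92 and 48.8 CPM in all 12 libraries with overlapping lines, and LAMC3 at most at 0.727 CPM.

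The integrins known from leukocytes were low. ITGB2 stood at 14.2, 7.56 and 2.85 CPM in CALU and at 0.015, 5.32 and 0 CPM in CHAGO, and had no read in H1703 or H1299. ITGAX had no read in any parental library or in H1703, and stood in TICs and knockdown TICs at 3.74 and 2.82 CPM in H1299, at 0 and 0.159 CPM in CHAGO and at 2.29 and 6.34 CPM in CALU. ITGAM had 78.9 CPM (2169 reads) in H1703 parental cells, no read in H1703 TICs and 0.502 CPM (13 reads) in H1703 knockdown TICs. In the 9 libraries of the other lines ITGAM was at most 2.68 CPM. The leukocyte markers CD3E and MS4A1 had no read in any library and PTPRC was at most 0.704 CPM. Of 12 leukocyte markers, 1 to 6 had more than 3 reads in a parental library, 1 to 4 in a TIC library and 1 to 6 in a knockdown TIC library. Their summed level was 9.86 to 338 CPM in parental cells, 110.4 to 647 CPM in TICs and 178 to 810 CPM in knockdown TICs. The lysosomal gene CD68 made up most of it, at 97.1 to 809 CPM, except in CHAGO parental cells, where CD68 was at 0.09 CPM and LCP1 at 8.24 CPM. The part of these markers in the ITGB2, ITGAX and ITGAM levels was not tested.

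Between TICs and parental cells, which asks what goes with the tumor-initiating state, 0 of the 28 genes passed the adjusted threshold of 0.05 with edgeR, where 4 of 14008 genes did (0.0286%, 3 higher and 1 lower in TICs). In a simulation with 50 altered genes per effect size, the test recovered 0 at a log2 change of 1, 4% at 2 and 42% at 3. A count of 0 therefore does not show that the 28 genes were unchanged. At an unadjusted p under 0.05, 7 of 28 were found, all higher in TICs: ITGA2, ITGA3, LAMA4, LAMB1, ITGAX, ITGB8 and LAMC1. The background at that p was 11.8% of all genes, and 5.73% on the higher side. The fold change was above 0 for 24 of 28 genes, against 48.7% of all genes, and its median was 1.01 on the log2 scale against -0.02 over all genes. By the median per line, this shift lay mainly in 2 lines. CHAGO had the highest median by line, 2.13, followed by CALU with 1.64, whereas H1299 reached only 0.18 and H1703 was at 0. Genes with no read in either library of a line, such as LAMA4 and LAMB3 in H1703, enter its median as a difference of 0. The H1703 median therefore does not show that genes with reads were level there. By class the median log2 fold change was 0.98 for alpha subunits, 1.18 for beta subunits and 0.98 for laminin chains. These genes were chosen together with earlier results of these data in view, and no test was made over the list.

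ITGA2 and ITGA3 had the smallest p. ITGA2 lay higher in TICs in 4 of 4 lines, by 3.72, 0.99, 3.70 and 2.01 on the log2 scale in H1703, H1299, CHAGO and CALU. Its fitted log2 fold change was 2.51 ± 0.56 (SE), with an adjusted p of 0.188 (edgeR, 4 lines). ITGA3 lay higher by 0.94, 0.94, 1.23 and 1.55 in the same lines, a narrow range, with a fitted log2 fold change of 1.17 ± 0.27 (SE) and an adjusted p of 0.188 (edgeR). DESeq2, run on the same counts, put both genes past the threshold, with adjusted p of 8.7e-05 for ITGA2 and 0.00445 for ITGA3, where it called 3.63% of all genes. With limma on the authors' mode-normalized values, which called 0.307% of genes, ITGA2 had an adjusted p of 0.0378 and ITGA3 0.0844. With limma voom, which called 0.0714% of genes, the adjusted p was 0.344 and 0.228. Without H1703, H1299, CHAGO or CALU in turn, the fold change of ITGA2 lay between 2.08 and 3.22 and that of ITGA3 between 1.02 and 1.26 on the log2 scale.

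Of the laminin chains, LAMB1 and LAMC1 were higher in TICs in 4 of 4 lines. Their log2 fold changes were 1.01 ± 0.32 (SE) for LAMB1 (adjusted p 0.270, edgeR) and 0.71 ± 0.26 for LAMC1 (adjusted p 0.333, edgeR). The LAMC1 difference was 1.83 in CALU and 0.20 to 0.51 in the other lines. LAMA4 was higher in 3 lines and had no read in H1703, with a log2 fold change of 4.51 ± 1.15 (SE) and an adjusted p of 0.231 (edgeR). In CHAGO, where parental cells had no LAMA4 read, the 546 reads of TICs put the level at least 148-fold higher, taking 3 reads in the parental library as the limit.

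ITGB8 was higher in TICs in each line by 0.93 to 5.96 on the log2 scale, but its difference in H1703 rests on 1 read. The log2 fold change was 3.31 ± 1.11 (SE), with an adjusted p of 0.297 (edgeR). For ITGAX, with no read in parental cells, TICs were at least 48.0-fold higher in H1299 and at least 66.2-fold higher in CALU, with the limit of 3 reads per library (adjusted p 0.281, edgeR). ITGAV was the remaining gene higher in 4 of 4 lines, by a log2 fold change of 0.38 ± 0.35 (SE, adjusted p 0.724, edgeR). In all, 6 of 28 genes were higher in 4 of 4 lines and 0 were lower in 4 of 4, against 8.32% and 8.97% of all genes.

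ITGA6, the gene of highest mean level per length, had a log2 fold change of -0.17 ± 0.69 (SE, adjusted p 0.954, edgeR), with lower levels in H1703 and H1299 and a higher level in CHAGO, and its sign changed under several alternatives. ITGAM was at least 584-fold lower in H1703 TICs than in H1703 parental cells, and at least 59.5-fold higher in CHAGO TICs than in CHAGO parental cells.

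**Figure D3:**
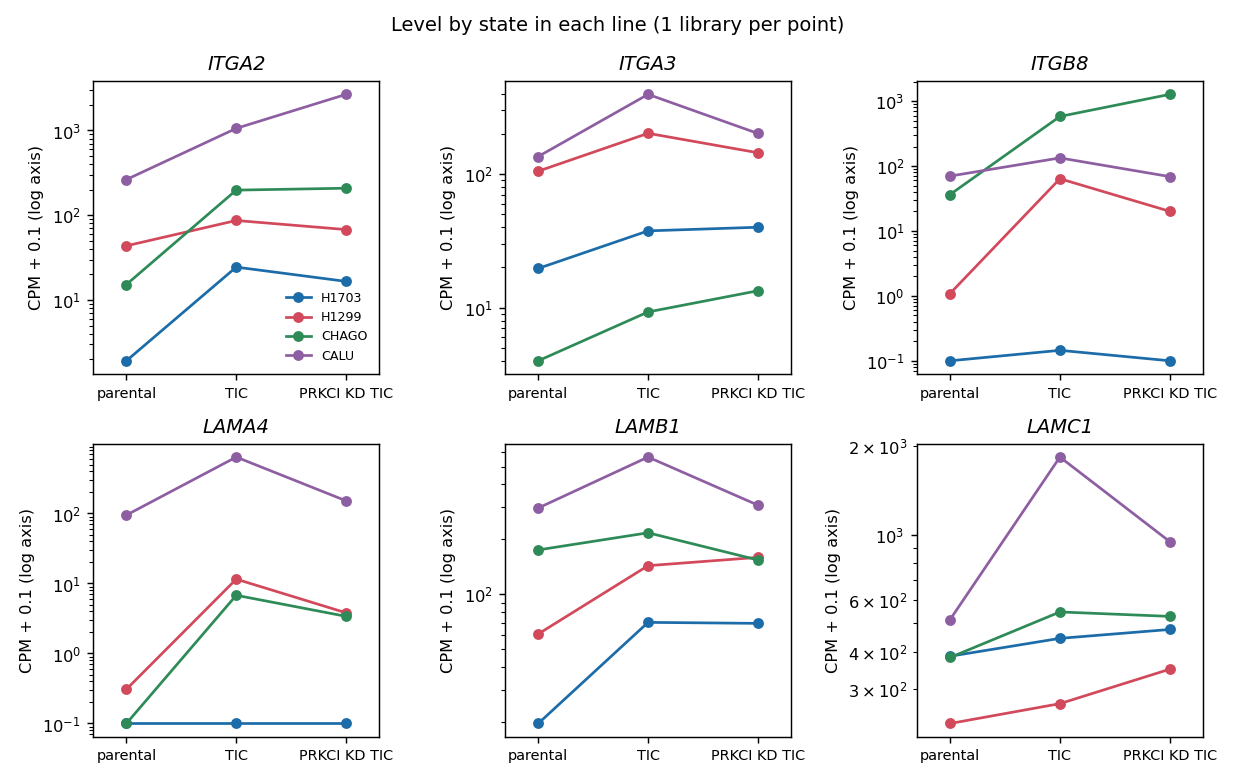
Level of 6 genes in parental cells, TICs and PRKCI knockdown TICs, as CPM plus 0.1 on a log axis, with 1 point per library and 1 colour per line. ITGA2, ITGA3, LAMB1 and LAMC1 step up from parental cells to TICs in each of the 4 lines, the CALU points of ITGA2 reach 2669.6 CPM in knockdown TICs, and LAMA4 lies at 0 in H1703 throughout.

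Between knockdown TICs and TICs, which asks what depends on PRKCI in TICs, 0 of 28 genes passed (2 of 14008 genes, 0.0143%), and 0 of 28 had an unadjusted p under 0.05, against 4.28% of all genes (edgeR). The simulation recovered 0 of 50 altered genes here at a log2 change of 1, 4% at 2 and 48% at 3. Changes of such sizes could therefore go uncalled. DESeq2 called 0 of 28 genes and 11 of all genes (0.0785%). The log2 fold change was above 0 for 10 genes (49.1% of all genes) and below 0 for 18, with a median of -0.23 against -0.01 over all genes. CALU had the lowest median by line, -0.91, and the medians of H1703, H1299 and CHAGO were 0, -0.01 and -0.09. Genes without reads in both libraries of a line again entered as 0.

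ITGB1 and LAMA5 were lower in knockdown TICs in 4 of 4 lines. The log2 fold change was -0.48 ± 0.35 (SE) for ITGB1 and -1.27 ± 0.87 for LAMA5, each with an adjusted p of 0.980 (edgeR). A share of 7.14% of all genes was lower in 4 of 4 lines. None of the 28 was higher in 4 of 4, where 7.23% of all genes were. The smallest p was that of ITGB2, which rests on CHAGO and CALU: its level was at least 134-fold lower in CHAGO knockdown TICs (0 reads) than in CHAGO TICs (435 reads). ITGB3 was higher in 3 lines, with a log2 fold change of 1.496 ± 1.01 (SE), LAMA4 was lower in 3 lines with -1.43 ± 0.97, and ITGB5 was lower in 3 lines with -0.49 ± 0.45. Each of these had an adjusted p of 0.980 (edgeR).

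ITGA2 had a log2 fold change of 0.15 ± 0.51 (SE, adjusted p 0.993, edgeR) and ITGA3 one of -0.19 ± 0.27 (adjusted p 0.984, edgeR), and each changed sign without CALU. In CALU alone, knockdown TICs differed from TICs by 1.33 in ITGA2 and 1.08 in ITGB3 on the log2 scale, and by -1.83 in ITGA6, -2.08 in LAMA4 and -2.61 in LAMA3. In CHAGO the differences of ITGB8 and LAMB3 were 1.13 and 1.26. These are single pairs of libraries without a test.

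**Figure D4:**
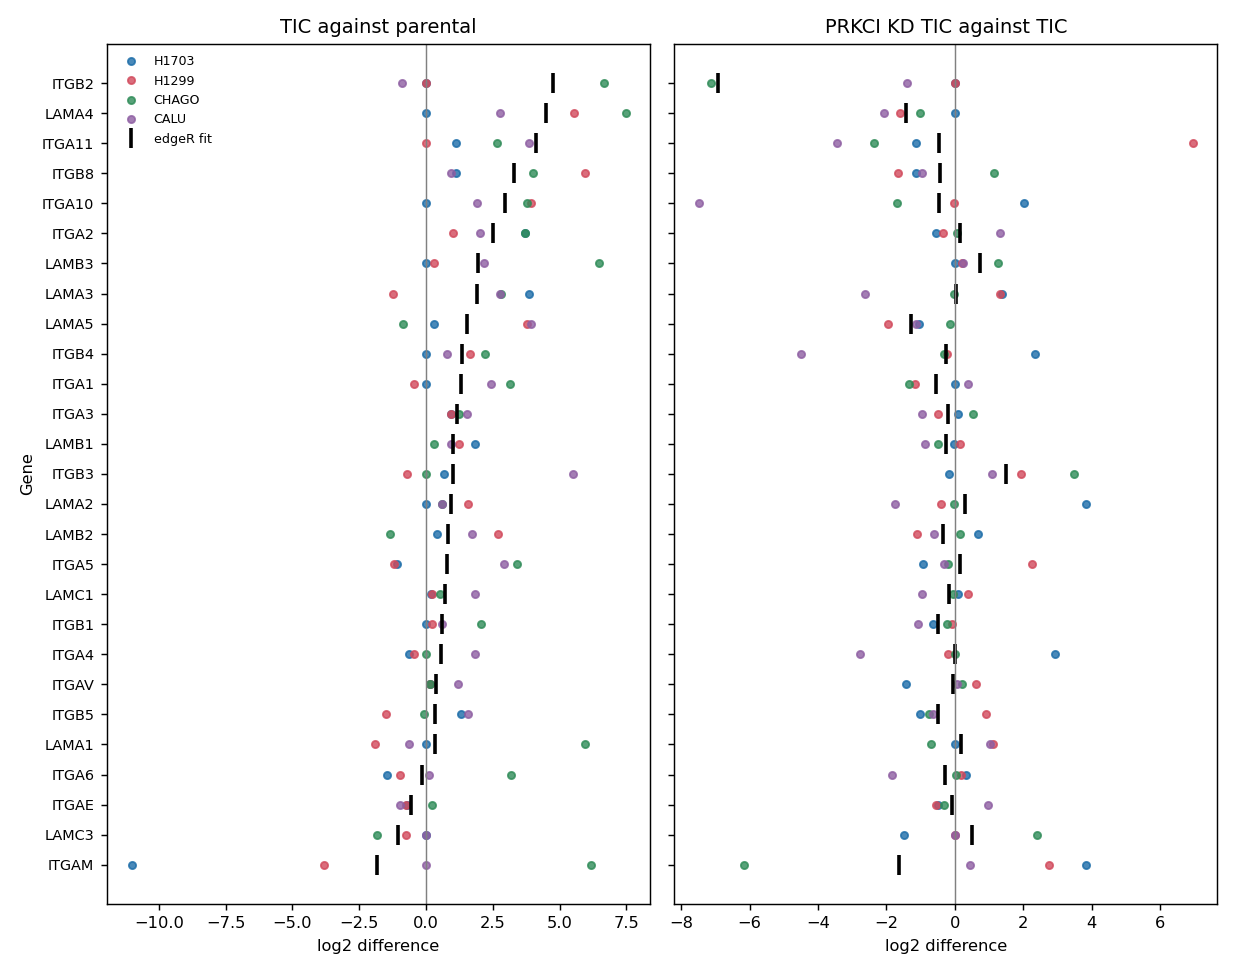
Log2 difference of each tested gene (rows, ordered by the fitted value in TICs against parental cells) for TICs against parental cells and for PRKCI knockdown TICs against TICs. Points are the 4 lines and the black bar is the edgeR fit over 4 lines. ITGAX, with no read in parental cells, is left out. In the left panel most bars lie above 0 (24 of 28 genes, ITGAX included), and the 4 points of ITGA3 lie close together.

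Knockdown TICs were also compared with parental cells, a comparison that shares libraries with the 2 others. Again 0 of 28 genes passed (5 of 14008, 0.0357%), and 6 of 28 had an unadjusted p under 0.05, against 10.7% of all genes (edgeR). The log2 fold change was above 0 for 22 genes, against 47.1% of all genes, and the median was 0.76, against -0.05 over all genes. ITGA2 had a log2 fold change of 2.66 ± 0.56 (SE, adjusted p 0.171, edgeR) and ITGA3 one of 0.98 ± 0.27 (adjusted p 0.237, edgeR), each higher in 4 of 4 lines. LAMA4 had 3.08 ± 1.15 and LAMB1 0.75 ± 0.32, with adjusted p of 0.400 and 0.445 (edgeR). ITGB8 had 2.87 ± 1.13 (adjusted p 0.409, edgeR). ITGAX was at least 36.2-fold higher in H1299 and at least 183-fold higher in CALU. DESeq2 called ITGA2 (adjusted p 3.01e-05) and ITGA3 (0.0252) where it called 2.82% of all genes, and limma on the mode-normalized values called ITGA2 (0.0338), with 0.143% of all genes.

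Other genes of the adhesion pathway were taken from 5 lists, and 0 of them passed the adjusted threshold in any of the 3 comparisons of states (edgeR). In TICs against parental cells, 6 of 12 tetraspanins and membrane partners of integrins had an unadjusted p under 0.05, against 11.8% of all genes, with a median log2 fold change of 0.83. Among these, CD63 had 1.29 ± 0.25 (SE, adjusted p 0.131, edgeR), CD9 0.78 ± 0.20 and CD82 4.74 ± 1.48. CD63 and CD9, which associate with laminin-binding integrins in the membrane, were higher in TICs in 4 of 4 lines.

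Of 18 other integrin ligands tested, 7 had an unadjusted p under 0.05 (edgeR), against 11.8% of all genes. TGFB1 had a log2 fold change of 2.17 ± 0.39 (SE, adjusted p 0.119, edgeR) and was higher in 4 of 4 lines, THBS1 (thrombospondin) had -2.99 ± 0.58 (adjusted p 0.142) and was lower in 4 of 4, and TNC (tenascin) had 3.32 ± 0.71 (adjusted p 0.197). The count for focal adhesion proteins was 2 of 27, below that background: FERMT2 (kindlin) with -0.66 ± 0.19 and the kinase SRC with 1.35 ± 0.50. Of 9 hemidesmosome proteins and other laminin receptors the count was 2, SDC4 (syndecan) with 1.37 ± 0.39 and RPSA with -0.84 ± 0.32, and of 16 other basement membrane proteins it was 0.

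In knockdown TICs against TICs, the counts at an unadjusted p under 0.05 were 2 of 27 focal adhesion proteins, 1 of 12 tetraspanins and partners, 2 of 9 hemidesmosome proteins and other laminin receptors, 0 of 16 basement membrane proteins and 2 of 18 ligands (edgeR), against 4.28% of all genes. With so few genes, a count of 1 or 2 is not a result about a list. The tetraspanin CD151, a partner of laminin-binding integrins, had a log2 fold change of -1.09 ± 0.40 (SE, adjusted p 0.980, edgeR), and PLEC (plectin), which ties ITGB4 to keratin, had -0.99 ± 0.43. Both were lower in 4 of 4 lines, as were ACTN4 (-1.27 ± 0.42) and EDIL3 (-4.47 ± 1.41). BCAM (-2.88 ± 1.14) was lower in 3 lines and COL1A2 (-3.01 ± 0.96) in 2, whereas FERMT2 (0.49 ± 0.19) was higher in 4 of 4. Each of these genes had an adjusted p of 0.980 (edgeR). Between lines, 16 of 27 focal adhesion proteins, 9 of 12 tetraspanins and partners, 4 of 9 hemidesmosome proteins and other laminin receptors, 12 of 16 basement membrane proteins and 14 of 18 ligands passed the adjusted threshold (edgeR, 45.4% of all genes).

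The genes whose log2 CPM followed that of ITGA3 most closely over the 12 libraries were TPP1 (Pearson r 0.965), VEZF1 (0.959) and STX7 (0.955), and those closest to ITGA2 were PPM1A (0.949), C19orf10 (0.932) and ABHD14A (0.928). Among the 28 genes, the highest correlations were those of ITGA3 with ITGA4 (0.932), ITGA3 with ITGB3 (0.925) and ITGB4 with ITGB8 (0.921). The 12 libraries come from 4 lines and share line and depth, so these values are descriptions only.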

How the data were processed

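RNA-seq counts of 12 libraries were analysed (4 lines, 3 states, 1 library each). RNA was extracted with Qiagen RNeasy and prepared with NuGEN, per the labels' protocols. CASAVA 1.4, TopHat 1.4, HTSeq 0.5.3p3 and genome build hg19 are named without roles, per the submitters' processing notes. The deposited table holds raw read counts per gene, per the file headers. The other deposited table gives a mode-normalized score. It lay within 1.5 of the raw count times a factor per library, except in 0 to 12 genes of a library. Whether counting used strand is not given in the sources used here, and exons of 5 of the 34 genes (ITGA1, ITGA7, ITGB7, LAMB1 and LAMB3) overlap another gene of the count table, and those of 20 overlap some annotated gene. Number of value columns not used: 0. Parental cells with PRKCI knockdown were not analysed here.

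Genes passing filterByExpr (14008 of 22506; 4044 had no read) were fitted with edgeR 4.0.16 (R 4.3.3; TMM, robust quasi-likelihood, terms for state and line, 12 libraries, 6 residual degrees of freedom, common dispersion 0.489), tested two-sided with Benjamini-Hochberg adjustment at 0.05 over all tested genes. Log2 CPM used a prior count of 2. Standard errors are the absolute log2 fold change divided by the root of F. Limits for 0 reads are 3 reads per library and cover counting error only. Scripts were tested on simulated data, with 50 altered genes for each effect size. For knockdown TICs against parental cells, 0, 10 and 40% were recovered at log2 changes of 1, 2 and 3. Lines pair the libraries, per the labels. With state means removed, the correlation across genes was 0.553 to 0.760 in the 12 same-line pairs of libraries and -0.414 to -0.0601 in 36 pairs of different lines. Removing the mean of the 4 lines in a state itself pulls correlations between lines below 0, so that sign is no evidence for the pairing. DESeq2 1.42.0, limma 3.58.1, other scalings and filters, no line term and leaving out each line were alternatives. The 34 genes, the lists and the tests were chosen with earlier results of these data known. Named in full are the 6 genes of smallest p per state comparison, the 8 between lines and the 6 highest per length, with up to 3 per list. Lengths and coordinates are from GENCODE v29 (GRCh38), not from the hg19 files, in place of the protein lengths first planned.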

Additional observations from a re-analysis of the deposited data

Results flagged for a closer look

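In 84 groups of 4 libraries (28 genes in 3 states), 5 had a highest or lowest library set apart from the other 3 by more than Dixon's critical share of the group's range (95% level). The nominal rate of about 1 in 20 groups by chance assumes values without ties, so it does not hold where libraries have 0 reads. If the other 3 libraries have none, any library with reads is flagged whatever its level. This was so for ITGAM in TICs and ITGB2 in knockdown TICs. In parental cells, CALU stood apart with 6.47 CPM of ITGA11 (560 reads) and 14.2 CPM of ITGB2 (1234 reads), where the other 3 lines had at most 0.015 CPM. In knockdown TICs, CALU had 2.85 CPM of ITGB2 (202 reads) and the other lines none. In TICs, CHAGO had 2.68 CPM of ITGAM (219 reads) where the other lines had none, and 4.92 CPM of LAMB2 where the other lines had 28.6 to 40.7 CPM. PTPRC, a leukocyte marker, was at 0.704 CPM in CALU parental cells, at 0 in CALU knockdown TICs and at 0.0612 CPM in CHAGO TICs. LAMB2 has a named pseudogene copy, so its counts are uncertain.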

How the results depend on the processing

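Calls between states depended on the tool. For TICs against parental cells, 4 genes were called in all, against 11 at an adjusted p of 0.10, 509 with DESeq2, 10 with limma voom, 43 on mode-normalized values, 0 with no replicate block (no line term), 0 with only the libraries of the groups compared and 0 to 0 when each line was left out. For knockdown TICs against TICs the count was 2, against 11 with DESeq2, 1 with limma voom, 1 on mode-normalized values, 0 with a 1 CPM filter, 0 with no replicate block, 0 with only the groups compared and 0 to 1 with a line left out (1 without CHAGO). For knockdown TICs against parental cells it was 5, against 9 at 0.10, 8 with DESeq2 size factors, 3 with a 1 CPM filter, 395 with DESeq2, 20 on mode-normalized values, 0 with no replicate block, 0 with only the groups compared and 0 to 2 with a line left out (2 without CHAGO). The last 2 settings also used fewer libraries, and the cause of these differences was not tested. Of the 28 integrin and laminin genes, DESeq2 called 2 and mode-normalized values 1 in each comparison with parental cells, and every other setting 0. Between lines, 15 to 24 of them were called, the fewest without CALU.

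Of 527 log2 fold changes of named genes under alternatives, 23 changed sign, none of them called. ITGA6 in TICs against parental cells became 0.57 (limma voom), 0.35 (mode-normalized), 0.24 (no replicate block), 0.0694 (groups compared only), 0.29 (without H1703) and 0.12 (without H1299). In knockdown TICs against TICs, limma voom gave -0.62 for LAMA2, 0.23 for ITGA1 and 0.23 for ITGB8, and no replicate block gave -0.45, 0.36 and 0.81. LAMA2 became -0.0845 with the groups compared only and -0.67 without H1703, ITGAV 0.30 without H1703, and ITGB8 0.43 without H1299. Without CALU, ITGA3 became 0.0770, ITGA2 -0.26, ITGA6 0.14 and LAMC1 0.15. In knockdown TICs against parental cells, ITGB1 became -0.11 with no replicate block and -0.31 without CHAGO, and ITGA1 -0.19 without CALU. Exon length, an alternative chosen after seeing the data, kept the first-ranked integrin alpha subunit, beta subunit and laminin alpha chain in 34 of 36 cases, the exceptions being the alpha subunit in CHAGO parental cells and the beta subunit in CHAGO TICs. Scaling to library totals moved the median of all genes to -0.11 in knockdown TICs against parental cells. The limit of 3 reads was 0.0327 to 0.142 CPM.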
